A study of Homo sapiens with 8 samples.

Results

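The transcripts described here belong to the intracellular arm of TGF-beta signalling: the receptors TGFBR1 and TGFBR2, the signal transducers SMAD1, SMAD2, SMAD3, SMAD4 and SMAD5, the inhibitory SMAD6 and SMAD7, and the SMAD co-repressor SKI. Every array probe whose gene symbol is one of these 10 was taken, whatever its signal. This gave 16 probes, out of 40981 probes measured in all channels and 16557 genes named on the array. RNA came from KM-H2, a Hodgkin lymphoma cell line, transduced with either the empty retroviral vector pMSCV-PIG (EV cells) or the same vector carrying a miR-155 sponge (miR-155-sp cells), an RNA with binding sites for miR-155 that is meant to hold the miRNA away from its targets. GFP-positive cells were sorted from both populations, so EV and miR-155-sp cells share the vector backbone, the transduction and the sort. From each population total RNA (T) and the RNA bound to an antibody against Argonaute 2 (Ago2-IP) were hybridized to 2-color arrays with swapped dyes. There was 1 RNA sample per group in 4 groups, and the Cy3 and Cy5 values are 2 labellings of that RNA, so no p-value can be given and the spread printed is technical. The model is a single cell line that makes its own miR-155, and how much of the miRNA the sponge holds was not measured in these files.

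TGF-beta family ligands bind a complex of type I and type II serine/threonine kinase receptors, which phosphorylates the receptor-regulated SMADs. SMAD2 and SMAD3 carry the signal of TGF-beta and activin, while SMAD1 and SMAD5 carry that of bone morphogenetic proteins. Both sets enter the nucleus with the common partner SMAD4, and in B cells the pathway is known for restraining proliferation and for directing antibody class switching. Argonaute 2 holds a miRNA and the transcripts it pairs with, so a transcript with a high ratio of Ago2-IP to total RNA (IP/T) was over-represented in the complex with any miRNA of the cell, not with miR-155 in particular. Pairing is led by the miRNA's seed, its bases 2 to 8. The mature sequence of the miRNA that the sponge was built against is shown because the EV to miR-155-sp comparison turns on it; it lies at chr21:25573983-25574006 on the + strand of GRCh38.p14 in the RefSeq table, and the capitals mark the seed.
hsa-miR-155-5p: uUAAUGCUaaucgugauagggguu
A transcript that pairs with the whole seed and has an A opposite base 1 carries the 8 letters AGCAUUAA. These files hold no transcript sequence in which to look for that site in the members.

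A probe is called detected in a channel where its signal carried the scanner software's mark of being well above background. Of 10 marker genes of Hodgkin lymphoma 9 were detected in at least 4 channels, and CCL22 in none. Of the B cell markers CD79A was detected in all 8 channels and CD79B and PAX5 in none; Hodgkin cells are known to lose much of the B cell program. Of markers of other cell types, those detected in at least 4 channels were 2 of 3 measured T cell genes (none in all channels), 2 of 4 myeloid genes (CSF1R in all 8 channels, LYZ and MPO in none), 1 of 3 epithelial genes with EPCAM in no channel, and neither fibroblast gene. Signals well above background made up between 58.9% and 61.9% of gene spots in the Cy3 channels but between 38.8% and 43.4% in the Cy5 channels, so dim probes were measured mainly in Cy3.

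Of the 16 probes, 8 from 6 genes were retained, that is, were detected in 4 channels or more and had labellings within 2-fold of each other in all 4 samples. These were 2 probes each for SMAD1 and SMAD2 and 1 each for SMAD3, SMAD4, SMAD7 and SKI. The SMAD4 probe was detected in 7 channels and the other 7 probes in all 8. No probe of SMAD5, SMAD6, TGFBR1 or TGFBR2 was retained. Detection in too few channels removed 4 probes (1 of SMAD2, the SMAD6 probe and both TGFBR2 probes), and disagreement between labellings removed the other 4 (1 of SMAD2, the SMAD5 probe, the TGFBR1 probe and 1 of SKI). Over the whole array 43.7% of probes were retained.

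**Figure D1:**
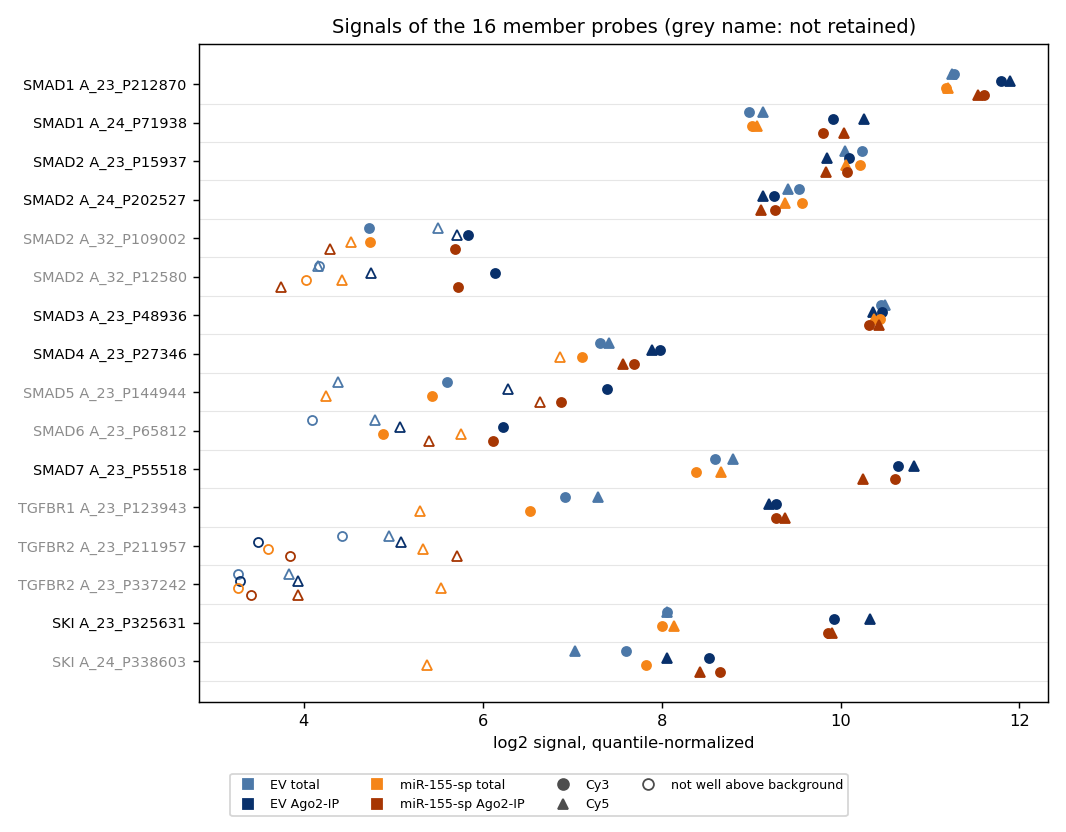
Quantile-normalized log2 signal (x axis) of the 16 member probes (y axis) in the 8 channels, with a color per sample, circles for Cy3, triangles for Cy5 and open symbols where it was not detected. Probes with a grey name were not retained: the TGFBR2 probes have open symbols throughout, and single Cy5 values of total RNA from miR-155-sp cells stand apart for TGFBR1 (5.30) and SKI A_24_P338603 (5.38).

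The question put to EV cells was which of these transcripts were over-represented with Ago2. Among the 8 retained probes SMAD7 and SKI had the highest IP/T, at 4.10 and 4.19, and 1 of the 2 SMAD1 probes passed the 2-fold limit with 2.05. The transcripts of the receptor-regulated SMAD2 and SMAD3 lay near equal signal in both fractions, with IP/T between 0.825 and 0.957. SMAD4 lay between, at 1.49. Thus 3 of 8 retained probes (37.5%), from 3 genes, reached the 2-fold limit, against 14.8% of the 17912 retained probes of the array. None had an IP/T of 0.5 or less, which 12.9% of all retained probes had. The median log2 IP/T of the 8 probes was 0.58, against -0.24 for all retained probes. With so few probes these are descriptions of the members and not a result about the pathway.

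SKI, which binds SMAD complexes and recruits co-repressors to their target genes, was read by 1 retained probe. The log2 signal of probe A_23_P325631 in EV cells was 8.06 in total RNA in both labellings and 9.92 (Cy3) and 10.33 (Cy5) in the Ago2-IP. The 2 fractions did not overlap, and IP/T was 4.82 on the array with the IP in Cy5 and 3.65 on the array with the IP in Cy3. This placed the probe at percentile 94.4 of all retained probes.

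SMAD7, the inhibitory SMAD that blocks the TGF-beta type I receptor and is itself induced by the pathway, was close to it. Its probe A_23_P55518 measured 8.59 (Cy3) and 8.80 (Cy5) in total RNA and 10.64 and 10.82 in the Ago2-IP of EV cells. IP/T was 4.68 and 3.58 in the 2 dye orientations, at percentile 94.3. The ranges of SKI and SMAD7 over the orientations overlap, so neither stands above the other.

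SMAD1, a transducer of bone morphogenetic protein signals, was read by 2 probes listed for the same transcript. Probe A_24_P71938 had an IP/T of 2.05, with 2.44 and 1.72 in the 2 orientations, so its place above the limit rested on the orientation with the IP in Cy5. Probe A_23_P212870 gave a log2 IP/T of 0.59, with 0.63 and 0.55. The ranges of these probes do not overlap each other or that of SMAD7.

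SMAD4, the partner that all receptor-regulated SMADs share, had an IP/T of 1.49, and its log2 IP/T of 0.57 (0.58 and 0.57) lay within the range of the lower SMAD1 probe. SMAD3 had 0.957 (0.939 and 0.976), apart from SMAD4. The SMAD2 probes A_23_P15937 and A_24_P202527 had 0.886 (0.761 and 1.03) and 0.825 (0.756 and 0.899). Their ranges overlap each other, and that of the first takes in SMAD3.

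Under other processing SKI probe A_23_P325631 and SMAD7 stayed above an IP/T of 2 in each of 14 settings, with a lowest log2 IP/T of 1.27 for each. Background correction by normexp compressed these ratios, and moved the median log2 IP/T of all retained probes from -0.24 to -0.01 with loess and -0.09 with quantile normalization. Probe A_24_P71938 of SMAD1 fell below the limit with either normexp setting (log2 0.72 and 0.56) and with a common median (0.93). The log2 IP/T of SMAD3 and of the first SMAD2 probe changed sign between settings (between -0.17 and 0.12, and between -0.39 and 0.04), so no direction is given for them.

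**Figure D2:**
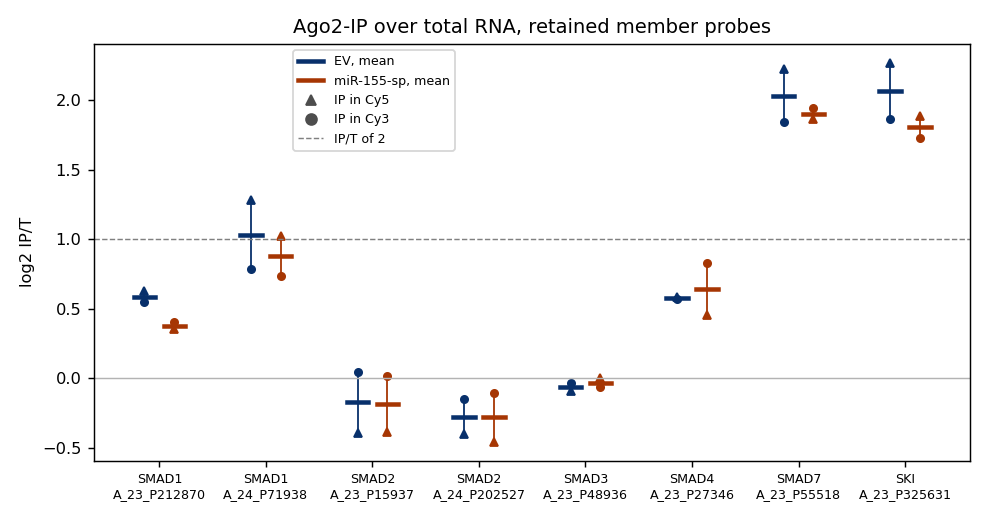
Log2 IP/T (y axis) of the 8 retained member probes (x axis) in EV cells (blue) and miR-155-sp cells (brown), with bars for the mean of the labellings, triangles for the array with the IP in Cy5, circles for the array with the IP in Cy3, and a dashed line at an IP/T of 2. SMAD7 and SKI lie near 2 on the log2 scale in both populations, SMAD2 and SMAD3 near 0.

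The sponge comparison asked whether the IP/T of these transcripts differed between cells with and without the sponge. For its Hodgkin lymphoma lines the paper proposes that the sponge left part of the miR-155 free. Binding of the members by miR-155 was not tested. No retained member passed a 1.5-fold change of IP/T in either direction, which 3.55% of all retained probes did downwards and 3.99% upwards, nor a 2-fold change (0.698% and 0.748%). With the sponge SKI and SMAD7 were still the highest of the retained probes, at 3.51 and 3.75, and were the 2 past the 2-fold limit (15.6% of all retained probes passed it). None was at 0.5 or less, as 14.1% of all were. The mean change was below 0 for 6 of 8 probes, against 9012 of all 17912 retained probes. It was below 0 for 4 of 8 when channels were scaled to a common median. There the members' median change was 0.0033, against 0.06 for all retained probes. Only 3 probes were lower in both dye orientations (37.5%, against 30.3% of all retained probes), none was higher in both (30.6% of all), and 5 were split. The median change was -0.07 on the log2 scale, with -0.19 on the arrays with the IP in Cy5 and -0.03 on those with the IP in Cy3, against -0.0025 for all retained probes.

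SKI and both SMAD1 probes were the ones lower in both orientations. SKI probe A_23_P325631 went from 4.19 to 3.51, a log2 change of -0.26 (-0.38 with the IP in Cy5 and -0.14 with the IP in Cy3). Its signal in miR-155-sp cells was 8.01 (Cy3) and 8.14 (Cy5) in total RNA and 9.86 and 9.90 in the Ago2-IP. Compared within a dye, the change was -0.52 in Cy5 and -0.0022 in Cy3; in Cy5 the Ago2-IP of EV cells had the highest value of the 4 IP channels.

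The 2 SMAD1 probes changed by -0.21 and -0.15. For A_23_P212870 the EV signals were 11.27 and 11.24 in total RNA and 11.79 and 11.89 in the Ago2-IP, and those of miR-155-sp cells 11.18 and 11.20 in total RNA and 11.60 and 11.54 in the Ago2-IP (Cy3 first). Both IP labellings of miR-155-sp cells lay below both of EV cells, and the change was -0.27 and -0.14 in the 2 orientations and -0.11 and -0.31 within Cy3 and Cy5. For A_24_P71938 the change was -0.26 and -0.04, and with normexp and quantile normalization it was 0.02.

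SMAD7 went from 4.10 to 3.75, with opposite signs in the orientations (-0.36 and 0.10). SMAD4 went from 1.49 to 1.56, also with opposite signs (-0.12 and 0.26). SMAD3 changed by 0.03 and the SMAD2 probes by -0.014 and -0.0050. Over all 14 settings the change of SMAD2 lay between -0.03 and 0.04 for A_23_P15937 and between -0.07 and 0.06 for A_24_P202527.

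In total RNA no retained member differed 1.5-fold, as 3.6% of all retained probes did. The median log2 change was -0.038, against 0.00013 for all. SMAD1 A_23_P212870, SMAD3, SMAD4 and SMAD7 were lower in both labellings, 4 of 8 probes against 32.9% of all, and none was higher in both, against 32.4%. SMAD4 had the largest difference, -0.37 (-0.20 in Cy3 and -0.55 in Cy5), but -0.09 and -0.16 with normexp followed by loess or by quantile normalization, where SMAD1 A_24_P71938 was further from 0 (-0.14 and -0.22). For SMAD4 the Cy5 value of total RNA from miR-155-sp cells was not detected. SMAD7 followed with -0.17 (-0.21 and -0.14). In bulk RNA a lower signal may come from fewer cells with the transcript or from less of it per cell, which cannot be told apart. The Ago2-IP signal had a median change of -0.21 over the members, against -0.0074 for all retained probes. SMAD4 was lower by about as much in the Ago2-IP as in total RNA (-0.30 and -0.37). The mean of SKI and of SMAD1 A_23_P212870 was lower in the Ago2-IP (-0.25 and -0.27) at a near equal total (0.01 and -0.06). For SKI the Ago2-IP difference lay mainly in Cy5 (-0.06 in Cy3 and -0.43 in Cy5). For this SMAD1 probe it was -0.19 in Cy3 and -0.36 in Cy5.

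**Figure D3:**
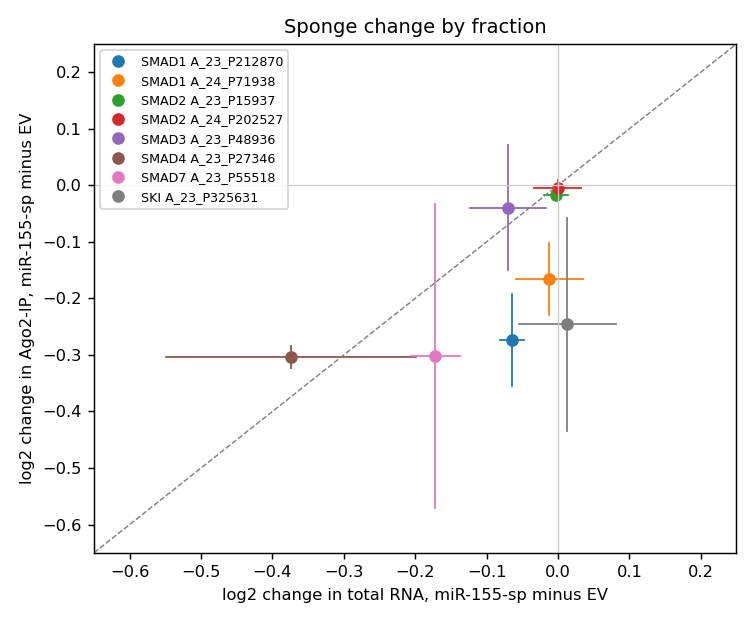
Log2 change from EV to miR-155-sp cells in total RNA (x axis) and in the Ago2-IP (y axis) of the 8 retained member probes, with points for the mean and lines reaching to the Cy3 and Cy5 values. On the dashed line IP/T is the same in both populations; the SMAD2 probes sit near 0 on both axes, SMAD4 at -0.37 and -0.30, and SKI at 0.01 and -0.25.

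The receptors could not be read as firmly. TGFBR1, the type I receptor kinase that phosphorylates SMAD2 and SMAD3, was detected in 7 of 8 channels. Its Ago2-IP signals agreed closely, at 9.28 (Cy3) and 9.21 (Cy5) in EV cells, with 9.28 and 9.38 under the sponge. For total RNA, EV cells gave 6.92 and 7.29, but miR-155-sp cells 6.53 and 5.30, where the Cy5 value did not count as detected and the labellings differed 2.35-fold. In EV cells, where all 4 values were detected, IP/T was 4.41 (4.86 and 4.00), in the range of SMAD7 and SKI A_23_P325631. This ratio was below 2 with normexp and loess, where only those 2 of 12 member probes passed the limit. In miR-155-sp cells the Cy3 channels alone gave 6.72, against 5.13 in EV cells in the same dye, a log2 change of 0.39. In Cy5 IP/T was 3.78 in EV cells and 16.9 with the sponge. That log2 change of 2.16 rests on the total that was not detected. TGFBR2, the type II receptor that binds the ligand first, was detected in no channel with either probe, so neither its level nor a ratio is given.

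SMAD5, the other bone morphogenetic protein transducer on the list, was detected in the Cy3 channel of each sample and in none in Cy5. In Cy3 its signal was 5.60 in total RNA and 7.39 in the Ago2-IP of EV cells, and with the sponge 5.44 and 6.88. This gives an IP/T of 3.45 and 2.71 in that dye, with no second labelling to set beside it. SMAD6, the inhibitory SMAD of the bone morphogenetic protein branch, was not detected in total RNA of EV cells. Its Ago2-IP signal there was 6.22 in Cy3 and 5.08 in Cy5, the latter not detected. The mean of these stood 1.42-fold above the dimmest detected signal of the array. This is not a strict bound for SMAD6, because 1 of the IP values was not detected. In miR-155-sp cells its total was detected in Cy3 alone, with an IP/T of 2.34 in that dye.

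The second SKI probe, A_24_P338603, was also detected in 7 of 8 channels. In EV cells both fractions were detected in both dyes, with labellings 1.48-fold apart in total RNA and 1.39-fold apart in the Ago2-IP. Its ratio of 1.97 in EV cells (1.38 and 2.83) was lower than that of the first SKI probe. In Cy3 it changed from 1.91 to 1.77, while the Cy5 total of miR-155-sp cells was not detected and lay 5.47-fold from the Cy3 value. Of the SMAD2 probes left out, A_32_P109002 was detected only in Cy3, where the ratio was 2.16 without and 1.94 with the sponge. A_32_P12580, listed for another transcript of the gene, was detected only in the Ago2-IP in Cy3. Its mean IP signal in EV cells stood 1.23-fold above the dimmest detected signal, not a strict bound because the Cy5 value was not detected. It gave no fold in miR-155-sp cells. The SKI probes thus do not give a common value for the gene. For SMAD2 the retained probes overlap, and the probes left out were detected only in Cy3 at dim signals. Their higher ratios are therefore not firm.

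Another 76 genes of the pathway were read beside the members, with 118 probes, of which 73 from 49 genes were retained. The 2-fold limit was passed in EV cells by 20 of 73 probes (27.4%, against 14.8% of all) from 18 genes. The share was 4 of 15 among receptors and ligands, 11 of 37 among SMAD partners and regulators, 1 of 13 in the SMAD-independent branch and 4 of 8 among target genes. Ratios in EV cells lay at or below 0.5 for 4 of the 73 probes (5.48%, against 12.9% of all). The median log2 IP/T was 0.32 over the 73 probes. With the sponge 27 of 73 passed (37.0%, against 15.6% of all).

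**Figure D4:**
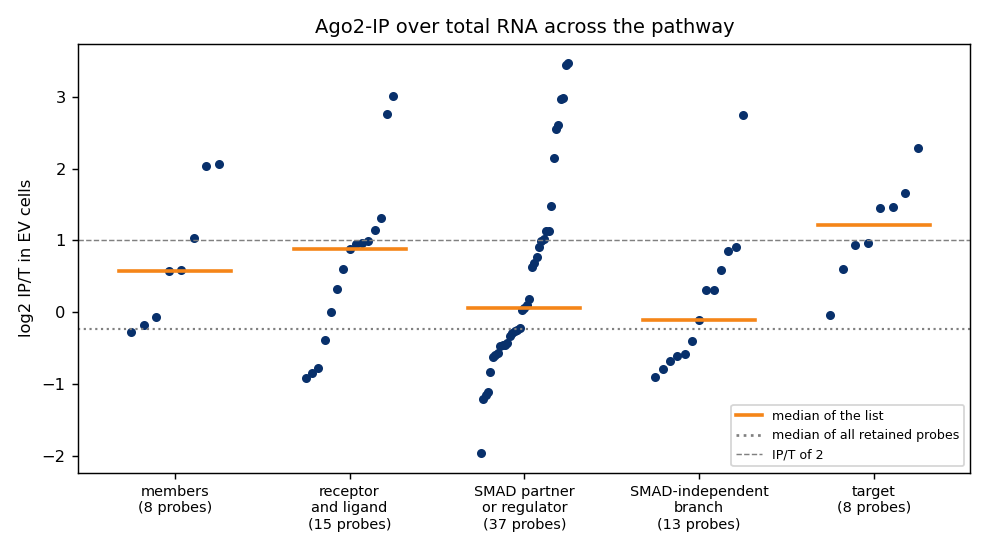
Log2 IP/T in EV cells (y axis) of the retained probes of the members and of 4 lists of other pathway genes (x axis, probes ordered by value within a list), with orange bars for list medians, a dotted line for the median of all retained probes (-0.24) and a dashed line at an IP/T of 2. The members' median is 0.58, the highest list median is that of the targets (1.21), and SMAD partners and regulators span from -1.97 to 3.47.

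Among probes detected in all channels, the 5 with the highest IP/T were TGIF1 (11.1), a nuclear co-repressor of SMAD2, BAMBI (10.9), a decoy receptor without a kinase domain, PPM1A (7.94), a phosphatase of the receptor-regulated SMADs, TAB2 (6.73), an adaptor of the TAK1 kinase, and ZEB2 (5.85), a SMAD-binding repressor. SKI and SMAD7 lay below these 5. A second PPM1A probe, A_23_P151679, had a log2 IP/T of -0.23, so its probes disagree. The 5 with the lowest were the SMAD7-binding STRAP (0.449), the ligand BMP7 (0.530), the small GTPase RHOA (0.533), the ligand TGFB1 (0.557) and the kinase MAPK14 (0.623).

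With the sponge IP/T was at least 1.5-fold higher for 4 of these 73 probes (5.48%, against 3.99% of all retained probes) and for none lower (3.55% of all). IP/T was lower in both orientations for 28 (38.4%, against 30.3% of all) and higher in both for 21 (28.8%, against 30.6%). The 4 were USP9X, the deubiquitinase of SMAD4 (1.13 to 1.78, log2 change 0.65), LEMD3, an inner nuclear membrane protein that binds receptor-regulated SMADs (log2 IP/T -0.46 to 0.14, change 0.61), and, named after their values were seen and not detected in all channels, PMEPA1 (change 0.63 for A_23_P57089), which keeps SMADs from the receptor, and TAB3 (0.88 for A_32_P162150), another TAK1 adaptor. Among probes detected in all channels the next were the ubiquitin ligase WWP1 (2.79 to 4.13, 0.57), the activin receptor ACVR2B (0.41 for A_24_P231132) and ZEB2 (0.39), all under 1.5-fold. Compared within a dye, LEMD3, WWP1 and ZEB2 changed sign, with -0.14, -0.08 and -0.03 in Cy3 against 1.36, 1.21 and 0.80 in Cy5. USP9X (0.64 and 0.67) and ACVR2B (0.38 and 0.43) had similar values in both dyes. Total RNA, the denominator of the ratio, had negative differences for these 5 fully detected probes, which their choice by a high change of the ratio favors: -0.51 for USP9X, -0.26 for LEMD3, -0.49 for WWP1, -0.37 for ACVR2B and -0.28 for ZEB2. Among the retained members SMAD3 and SMAD4 combined a positive mean change of IP/T with a negative one of total RNA (0.03 with -0.07, and 0.07 with -0.37).

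Among probes detected in all channels and lower in both orientations, the changes furthest below 0 were JUNB (-0.31 for A_24_P241815), an immediate target gene, FKBP1A (-0.29 and -0.26 for 2 probes), the immunophilin that holds the type I receptor inactive, NEDD4L (-0.27), a ubiquitin ligase of SMAD2 and SMAD3, and ID2 (-0.25 for A_32_P69368), a target of bone morphogenetic proteins. None reached 1.5-fold, and the change of SKI (-0.26) lay among them. Compared within a dye, JUNB changed by -0.00087 in Cy3 and -0.62 in Cy5, and NEDD4L by -0.07 and -0.46. The FKBP1A probes (-0.15 and -0.10 in Cy3, -0.43 and -0.42 in Cy5) and this ID2 probe (-0.09 and -0.40) were also further below 0 in Cy5. In total RNA the largest positive differences were BMP7 (0.46), the histone acetyltransferase CREBBP (0.29) and the receptor ACVR1B (0.29). After USP9X and WWP1 the largest negative one was ID2 (-0.38 for A_23_P143143). BMP7 and CREBBP had similar values in both dyes, but ACVR1B had 0.10 in Cy3 and 0.47 in Cy5. WWP1 (-0.18 and -0.79) and this ID2 probe (-0.17 and -0.60) were also further from 0 in Cy5. That ID2 probe changed by 0.27 in IP/T, the opposite sign from the other ID2 probe.

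**Figure D5:**
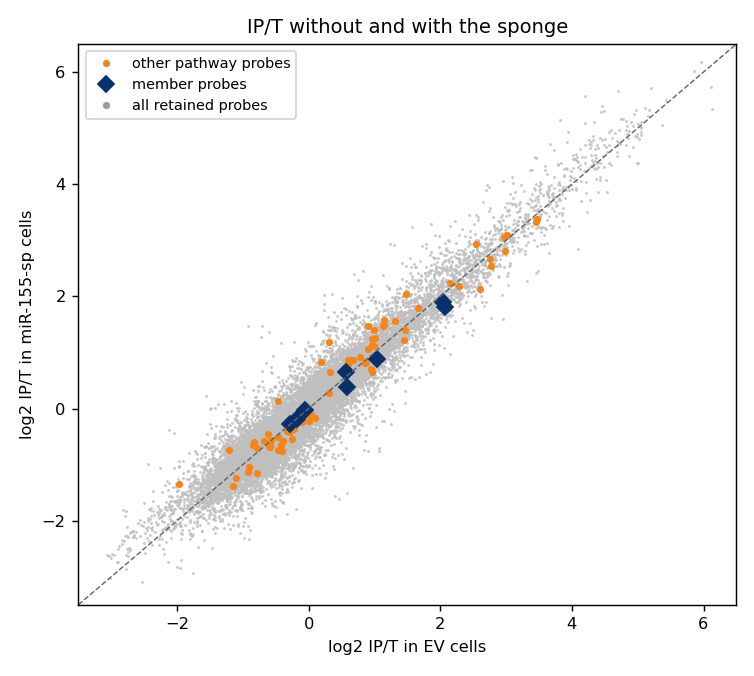
Log2 IP/T in EV cells (x axis) against miR-155-sp cells (y axis) for all 17912 retained probes (grey), the 73 other pathway probes (orange) and the 8 member probes (blue diamonds), with a dashed line of equality. The members follow the line, SKI and SMAD7 just below it near 2 on both axes.

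Among probes detected in all channels, those with the pattern over the 8 channels most like that of SKI A_23_P325631, by Euclidean distance between log2 signals with each probe's mean removed, were ARPP19 (distance 0.22, IP/T 4.28 without and 3.44 with the sponge), SLC11A2 (0.28) and ANKRD11 (0.29), out of 10073 compared. For SMAD2 A_24_P202527, the retained member with the lowest IP/T, they were TIMM23 (0.10), ZYX (0.12) and PRELID1 (0.12), out of 10072. The channels are labellings of 4 RNA samples, so this likeness rests on few independent points.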

How the data were processed

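Total and Ago2-IP RNA of KM-H2 EV and miR-155-sp cells was hybridized to 4 two-color arrays. Per the file headers, the deposited spot intensity comes from Feature Extraction (Agilent) 10.7.3.1, given as 10.5.1.1 in the submitters' processing notes, which subtracts background and normalizes dyes. The authors also deposited log2 values for 16065 probes, which differed from those computed here by a median of 0.000557. The array design used hg18. Each sample's own channel was used. Control and outlier spots were left out, spots of a probe were averaged, and log2 signals were quantile-normalized over 8 channels. Probes were retained if marked well above background (detected) in 4 or more channels (22538 probes) with labellings within 2-fold (17912 probes). Log2 IP/T is the IP mean minus the total mean. With 1 sample per group no test was run. The number of arrays limits the precision.

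Probes were named through RefSeq identifiers (23958 of 41000 matched). All member probes are described. Of 76 other pathway genes, those named were, among probes above background in all channels, the 5 highest and 5 lowest in EV IP/T, the 5 largest rises and falls of IP/T with 1 sign in both orientations, and the 3 largest of total RNA. The members and lists were chosen with earlier results of these data known. A fold against a sample not above background is a bound, set against the lowest signal above background. It takes the mean of both labellings of the brighter sample, so it is not strict where 1 of these was not detected. Normexp (offset 50) was run in limma 3.58.1 (R 4.3.3) and the rest in Python 3.11.15 (pandas 2.3.3, numpy 2.4.6). The steps were tested on simulated data. Alternatives were a common median, normexp with loess or quantile normalization, the deposited values, stricter or no filters, arithmetic means, single labellings or orientations, and gene means.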

Additional observations from a re-analysis of the deposited data

Results flagged for a closer look

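For LEMD3 (A_23_P151018) IP/T was below 1 in both dye orientations in EV cells (0.589 and 0.892) and above 1 in both with the sponge (1.06 and 1.15). The ratio changed by 0.61 on the log2 scale. Compared within a dye the direction was not the same: in Cy3 the ratio was 1.02 in EV cells and 0.926 with the sponge, in Cy5 0.514 and 1.32. The difference was not tested, as there was 1 sample per group.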

How the results depend on the processing

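The counts of members past the 2-fold limit of IP/T were 3 in EV and 2 in miR-155-sp cells, of 8 probes (14.8% and 15.6% of all retained probes). They became 5 and 5 of 12 without the filter on agreement between labellings, which brings in the TGFBR1, SMAD5, SKI and SMAD2 probes left out for that reason. Of all probes 14.9% in EV and 15.8% in miR-155-sp cells passed in that setting. With a common median the member counts were 2 and 2 of 8. Normexp gave 2 and 2 of 12 with loess, and 3 and 3 of 12 with quantile normalization. In these 3 settings 14.1%, 5.99% and 6.45% of all probes passed in EV cells. Leaving out a labelling or an orientation gave counts from 2 to 3 in both populations. The median log2 IP/T in EV cells (0.58) was 0.51 with a common median, 0.46 and 0.50 with normexp followed by loess or by quantile normalization, 0.82 without the agreement filter, 0.69 over gene means, and from 0.56 to 0.60 without a labelling or orientation. The median change of IP/T (-0.07) lay between -0.19 and -0.029 without a labelling or orientation, was -0.13 over probes detected in all channels, -0.0095 without the agreement filter and -0.0051 with normexp and quantile normalization, and was 0.0033 with a common median, where the median of all retained probes moved to 0.06. The median change of total RNA (-0.038) was -0.076 with a common median, -0.024 with normexp and loess, -0.012 over probes detected in all channels, -0.11 without the agreement filter, -0.054 over gene means, and from -0.053 to -0.038 without a labelling or orientation. Of the values of single probes, 58 moved by more than the spread between orientations; the filters cannot move them, and a single orientation always lies within that spread. No paired analysis was possible because the replicate numbers mark the dye and each group holds 1 RNA sample. Signal over background limits SMAD5, SMAD6, TGFBR1 and TGFBR2, above all in Cy5.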
